A study of Homo sapiens with 2 samples.

Results

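The genome bins described here are the 475 stretches of 100 kb in which at least 10 peaks of Flag-tagged ETV4 had their summit. Each chromosome was cut into bins of 100 kb from its first base up to its last RefSeq gene or peak, the summits in each bin were counted, and the bins were selected on that count. They made up 475 of 30308 bins on chromosomes 1 to 22 and X, a background share of 1.57% (Wilson 95% confidence interval 1.43 to 1.71). They held 5530 of the 54389 peaks, or 10.2%. A further 18069 bins held 1 to 9 summits and 11764 held 0.

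The peaks came from a ChIP-seq experiment with 1 anti-Flag immunoprecipitate and 1 input library. Both were made from A549, an established line of human lung adenocarcinoma cells. These A549-shETV4 cells carried an shRNA against ETV4 and were transfected again to express Flag-ETV4. The peaks are therefore those of the transfected, tagged protein. The antibody against Flag came from CST per the study's methods and from Sigma per the sample labels, a difference that was not settled. No replicate was sequenced, so no SD and no test between conditions can be given. The input enters only as the control level beside each peak. Since the summit counts chose the bins, the number, fold enrichment, height and width of their peaks are given as a description of this library.

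ETV4 is a transcription factor of the PEA3 group of the ETS family, with ETV1 and ETV5 as its closest relatives. ETS proteins bind DNA around a GGAA core, and PEA3 factors are activated downstream of receptor tyrosine kinases, RAS and ERK and are marked for degradation by COP1. They often bind close to AP-1, the dimers of FOS and JUN proteins, at promoters and at enhancers far from any gene start. Several enhancers and promoters that lie close together give a stretch of the genome with many separate peaks.

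Promoter sequences are shown for the bins with the most summits, because they are the places where a summit, a gene start and the letters of an ETS site can be read together. In the 15 bins with the most summits, 14 protein-coding promoters had a summit inside the window from 250 bases before to 50 bases after a gene start, as given by RefSeq for GRCh38.p14. The letters CCGGAA were found on either strand in 4 of these windows, and these are printed below with the SOCS3 promoter, which had the highest fold enrichment of the other 10. Each sequence runs 5′ to 3′ along its gene from 250 bases before the start to the 20 bases from the start on, on the strand given. Capitals mark CCGGAA or its reverse complement TTCCGG, and all 8 letters where the match extends to CCGGAAGT. The SCRN2 stretch is chr17:47841254-47841523 (minus strand), SLC29A1 chr6:44219365-44219634 (plus strand), GPATCH4 chr1:156601460-156601729 (minus strand), TMEM234 chr1:32222334-32222603 (minus strand) and SOCS3 chr17:78359648-78359917 (minus strand).
SCRN2: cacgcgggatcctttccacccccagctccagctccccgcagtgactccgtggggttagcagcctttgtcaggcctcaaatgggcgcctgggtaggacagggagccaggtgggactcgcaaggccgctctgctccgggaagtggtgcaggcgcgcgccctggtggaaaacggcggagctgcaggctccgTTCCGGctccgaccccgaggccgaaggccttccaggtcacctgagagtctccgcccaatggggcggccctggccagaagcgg
SLC29A1: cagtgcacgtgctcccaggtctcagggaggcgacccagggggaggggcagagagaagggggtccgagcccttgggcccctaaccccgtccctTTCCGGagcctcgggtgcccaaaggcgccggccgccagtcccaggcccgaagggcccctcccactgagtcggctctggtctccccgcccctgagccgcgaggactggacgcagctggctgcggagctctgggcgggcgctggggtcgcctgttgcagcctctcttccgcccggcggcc
GPATCH4: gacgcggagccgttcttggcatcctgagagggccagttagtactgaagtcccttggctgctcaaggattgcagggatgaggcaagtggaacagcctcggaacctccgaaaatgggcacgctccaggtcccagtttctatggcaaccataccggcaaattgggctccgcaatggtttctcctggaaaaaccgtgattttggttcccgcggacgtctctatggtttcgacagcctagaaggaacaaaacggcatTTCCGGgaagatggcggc
TMEM234: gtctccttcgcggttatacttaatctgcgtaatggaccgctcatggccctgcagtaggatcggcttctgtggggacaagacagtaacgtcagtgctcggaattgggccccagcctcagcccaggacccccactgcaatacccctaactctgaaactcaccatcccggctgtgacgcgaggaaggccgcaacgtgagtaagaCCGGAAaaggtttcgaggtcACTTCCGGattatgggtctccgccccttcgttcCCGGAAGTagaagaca
SOCS3: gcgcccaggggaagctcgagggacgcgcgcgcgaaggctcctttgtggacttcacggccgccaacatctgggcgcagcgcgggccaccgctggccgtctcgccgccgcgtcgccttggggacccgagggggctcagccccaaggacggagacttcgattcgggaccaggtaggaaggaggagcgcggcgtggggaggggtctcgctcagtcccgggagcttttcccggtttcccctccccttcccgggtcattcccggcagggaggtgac

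The TMEM234 promoter held 3 matches, 2 of them within the longer CCGGAAGT, and its summit lay 42 bases after the start with a fold enrichment of 24.0. The GPATCH4 match lies just after the start, and the summit stood 7 bases before the start at a fold of 19.9. SCRN2 had its summit 49 bases before the start at a fold of 6.58, and SLC29A1, a nucleoside transporter gene, had its summit 30 bases after the start at a fold of 3.37. SOCS3, a feedback inhibitor of cytokine receptors, had a fold of 63.3 at 29 bases after its start and none of these letters in the window. A match is only a string of letters, and no match says nothing about binding.

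The same search was run over all 22131 promoter windows of protein-coding genes in the table, which covers 15811 of 19970 such genes and none on chromosome 8. CCGGAA stood in 21.2% of all windows and CCGGAAGT, which contains it, in 5.34%. Of the windows in dense bins, 22.6% had a summit inside (Wilson 95% confidence interval 20.6 to 24.7, n = 1546), against 18.2% in other bins (17.7 to 18.7, n = 20585). The summits that selected the bins are counted in this share, so its direction follows from the selection. Among windows with a summit, CCGGAA was present in 45.6% in dense bins (40.4 to 50.8, n = 349) and in 47.0% elsewhere (45.4 to 48.6, n = 3744). CCGGAAGT was present in 16.0% and 16.2% of them. The AP-1 letters TGACTCA, or TGAGTCA on the other strand, stood in 5.44% of windows with a summit in dense bins (19 windows) and in 3.39% elsewhere, beside 4.01% of all windows. Among windows without a summit, CCGGAA was present in 16.9% in dense bins and in 15.2% elsewhere. Windows with a summit thus carried the ETS letters at similar shares inside and outside the dense bins.

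The counts fell off steeply toward the dense end. The mean over all bins was 1.79 summits and the median 1. Exactly 10 summits were found in 171 bins, 11 in 116, 12 in 70 and 13 in 47, and the highest count was 21, reached in 2 bins. Just outside the threshold, 239 bins held 9 summits. Their peaks had a median fold of 9.63 and the bins a mean of 2.97 protein-coding genes, beside 9.91 and 3.40 for bins with exactly 10 summits. The plot of summits per bin shows no gap at the threshold.

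**Figure D1:**
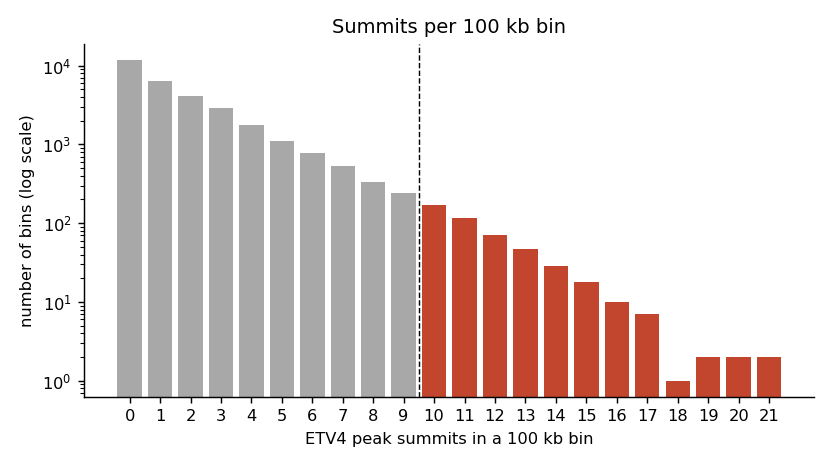
Number of 100 kb bins (y axis, log scale) by the number of ETV4 peak summits in the bin (x axis); red bars are the bins with 10 or more and the dashed line is the threshold. The counts fall from 239 bins with 9 summits to 171 with 10 and 2 with 21, with no gap at the threshold.

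Dense bins were rich in genes. They overlapped a mean of 3.54 protein-coding genes (median 3), bins with 1 to 9 summits a mean of 1.39 (median 1) and bins with 0 summits a mean of 0.517 (median 0). Of the bins without a protein-coding gene, 0.299% were dense (35 of 11689), rising to 4.31% of bins with 3 to 4 genes, 16.7% of bins with 5 to 9 (125 of 747) and 42.4% of bins with 10 or more (25 of 59, Wilson 95% confidence interval 30.6 to 55.1). In all, 1637 of 19970 protein-coding genes overlapped a dense bin, a background share of 8.20%, and 646 of 18177 lncRNA genes did so (3.55%). Over the 30308 bins, Spearman's rho between summits and protein-coding genes was 0.46. Over the 475 dense bins, whose counts span only 10 to 21, it was 0.03.

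The chromosomes differed along with their gene content. Chromosome 19, which has the most protein-coding genes per bin, had 59 dense bins of 586 (10.1%) and chromosome 17 had 47 of 833 (5.64%). Chromosome 1 had 56 of 2490 (2.25%). These 3 chromosomes held 34.1% of the dense bins and 12.9% of all bins. Chromosome 4 had 2 dense bins of 1902, and chromosomes 13 and 21 had 0 of 1144 and 0 of 467. Chromosomes 20 and 22 have like gene contents, 1.26 and 1.28 protein-coding genes per bin, and had 3.57% and 0.984% of their bins dense.

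**Figure D2:**
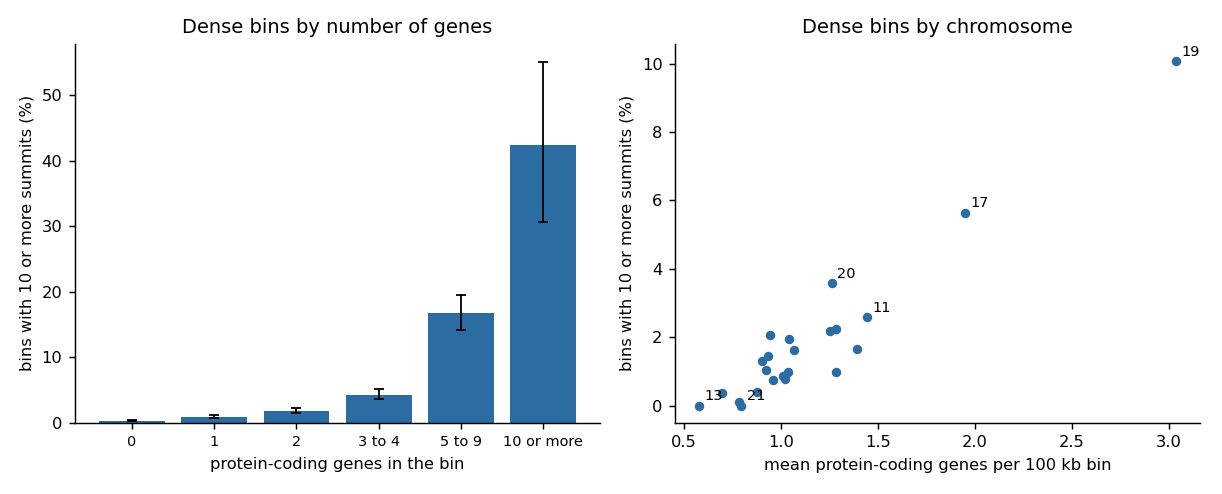
Left, percent of 100 kb bins with 10 or more summits (y axis) by the number of protein-coding genes they overlap (x axis), with Wilson 95% confidence intervals; right, the same percent for each chromosome (points, some labelled) against its mean number of protein-coding genes per bin. The share rises from 0.299% without a gene to 42.4% with 10 or more genes, and chromosomes 19 and 17 stand highest at 10.1% and 5.64%.

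Most summits of dense bins lay away from gene ends. A summit was counted at a gene end when it lay within 1 kb of either outer end of a protein-coding or lncRNA gene, and 26.7% of the summits in dense bins did so (1479 of 5530, Wilson 95% confidence interval 25.6 to 27.9), against 24.8% in bins with 1 to 9 summits (24.5 to 25.2). A further measure, within 1 kb of a listed start site, gave 20.3% in dense bins and 21.4% in the others off chromosome 8. Outside any gene of either kind lay 34% of the summits in dense bins and 37.3% of those in bins with 1 to 9. The order of the first pair turned in each class of bins with 1 or more protein-coding genes. Bins of a class have similar numbers of genes and dense bins were selected for many summits, so this order is not independent of the selection. With 1 protein-coding gene, 11.1% of summits in dense bins were at a gene end (9.47 to 13.1) and 17.5% in bins with 1 to 9 summits (16.9 to 18.1). With 3 to 4 genes, the shares were 26.9% (24.6 to 29.4) and 42.8% (41.7 to 43.9).

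Counted per dense bin, the summits at gene ends rose with the number of genes while those away from gene ends fell. Dense bins with 1 protein-coding gene had a mean of 1.28 summits at gene ends and 10.2 away from them. Those with 5 to 9 genes had 5.02 and 6.68, and those with 10 or more had 7.92 and 4.04. In bins with 1 to 9 summits the corresponding means were 0.439 and 2.07 with 1 gene, and 2.91 and 2.32 with 5 to 9. With 10 or more genes they were 3.82 and 1.36. Away from gene ends, these bins thus showed no steady fall. Dense bins were selected on the sum of both parts, and few genes offer few gene ends. The division between both parts is therefore not independent of the selection either. Among the 475 dense bins, 55 had no summit at a gene end and 61 had most of their summits there. In 18 bins every summit lay outside genes, and in 75 bins none did.

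The peaks of dense bins were about as strong as other peaks. Fold enrichment is the pileup of fragments at the summit plus 1 over the control level plus 1. Its median was 9.91 in dense bins (quartiles 5.69 and 21.0) and 9.61 in bins with 1 to 9 summits (5.69 and 20.2). In bins with 2 protein-coding genes the medians were 10.2 and 10.1. In each other class of gene number the dense bins had the lower median, such as 8.79 against 9.22 with 1 gene and 10.6 against 12.7 with 10 or more. Dense bins held 53 of the 507 peaks with a fold of 100 or more, 10.5% (Wilson 95% confidence interval 8.08 to 13.4), and 10.2% of all peaks. Weak peaks with a fold under 5 made up 18.3% and 18%. Wide peaks were more frequent, with 245 of 1488 peaks of 2 kb or more (16.5%, 14.7 to 18.4) in dense bins, and the median width was 570.5 bp against 514 bp. This order of the median widths did not hold in every class of gene number. With 1 protein-coding gene the medians were 525 bp in dense bins and 492 bp in bins with 1 to 9 summits. With 5 to 9 genes they were 653 bp and 700.5 bp. Dense bins had the larger median with 0 or 1 gene and the smaller in each class from 3 to 4 genes on. The median pileup was 29 fragments in dense bins and 26 in the others. Summits at gene ends had a median fold of 12.9 in dense bins and the rest 9.09. In bins with 1 to 9 summits these medians were 14.2 and 8.41.

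The control level moved with the grouping. Its median was 1.78 at peaks of dense bins and 1.62 at peaks of bins with 1 to 9 summits. At 20.9% of the former and 30.0% of the latter it stood at the lowest level of the list, 1.28, below which a lower input cannot be seen. In 284 of 475 dense bins the median control level was above the median over all peaks, and the highest bin median was 4.74. The part of the input level in the summit counts was not tested.

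Dense bins differed widely among themselves in fold. The median fold of a bin ran from 4.88 to 33.1 (median over bins 10.1) and the highest fold in a bin from 9.20 to 327. In 48 bins the strongest peak had a fold of 100 or more, and in 17 it was below 20. Over the 475 bins, Spearman's rho between the summit count and the median fold was −0.03, and between the count and the highest fold 0.10. Peaks covered from 4.08% to 23.4% of a bin, with a median of 8.10%. Neighbouring summits were a median of 4650 bp apart over 5055 gaps, and 5.91% of the gaps were under 1 kb.

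Dense bins tended to lie in wider stretches with many peaks. The bins directly beside them held a mean of 5.61 summits (median 5, n = 949), 15.0% of those bins were dense themselves and 4% were empty. At 1000 kb away the mean was 3.92 and 5.59% were dense. Beside bins with 1 to 9 summits, the mean was 2.36, 2.13% were dense and 25.2% were empty. Bins with 9 summits, just outside the threshold, had neighbours with a mean of 4.82. The genes of the neighbouring bins were not counted, and how far gene content accounts for the summits there was not tested.

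**Figure D3:**
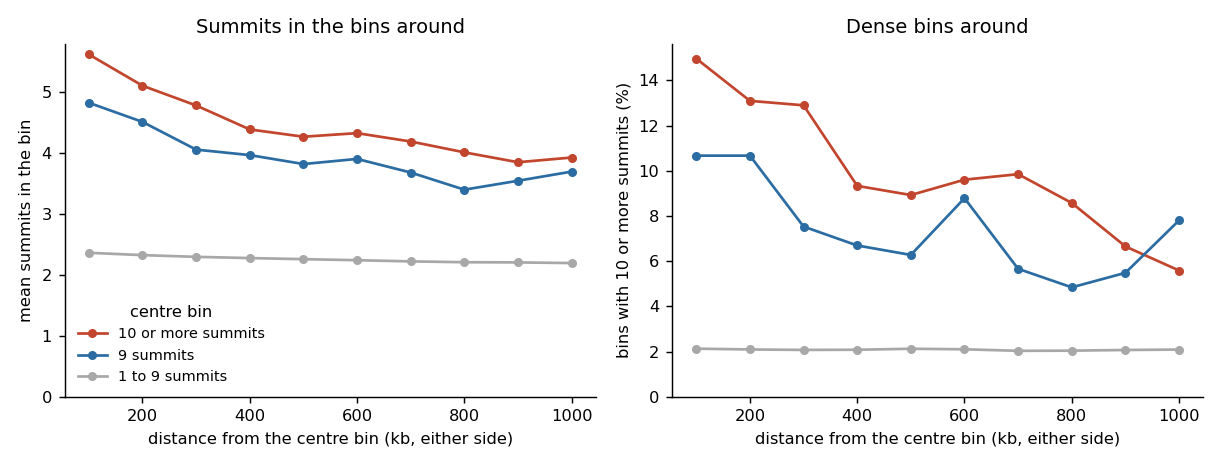
Mean number of summits (left) and percent of bins with 10 or more (right) in the bins 100 to 1000 kb to either side of a centre bin (x axis, kb), for centre bins with 10 or more summits (red), 9 (blue) and 1 to 9 (grey). Around dense bins the mean falls from 5.61 to 3.92, whereas around bins with 1 to 9 summits it stays near 2.36 to 2.19.

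The 475 bins formed 404 runs, of which 347 were single bins, 46 had 2 bins, 8 had 3 and 3 had 4. The first of the 4-bin runs, chr1:154900001-155300000, held 11, 13, 12 and 11 summits over 28 protein-coding genes, among them the ephrin ligands EFNA1, EFNA3 and EFNA4, the adaptor SHC1, which links receptor tyrosine kinases to RAS, the mucin MUC1 and the metalloprotease ADAM15. Of its 47 summits, 22 were at gene ends, and its strongest peak had a fold of 47.8. The next, also on chromosome 1, was chr1:156500001-156900000 and held 10, 19, 11 and 17 summits over 18 genes, including NES (nestin, an intermediate filament protein), the retinoic acid binding protein CRABP2 and the growth factor HDGF. Its median fold was 8.10, and 16 of its 57 summits were at gene ends. The run chr11:75200001-75600000 held 11, 14, 13 and 10 summits around ARRB1 (beta-arrestin), RPS3, the collagen chaperone SERPINH1 and GDPD5, with only 7 of 48 summits at gene ends.

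The 3-bin runs also differed in the share of summits at gene ends. In chr9:113500001-113800000, where the only protein-coding gene is RGS3, a regulator of G protein signalling, beside 2 lncRNA genes, 0 of 35 summits were at a gene end and folds reached 95.5. In chr7:73600001-73900000, with the tight junction genes CLDN3 and CLDN4 and the transcription factor MLXIPL, 7 of 39 summits were at gene ends, 23 lay outside genes and the highest fold was 125. In chr11:65400001-65700000, with the TGF-beta binding protein LTBP3 and RELA, a subunit of NF-kappaB, 15 of 37 were at gene ends. The other 3-bin runs were chr3:50100001-50400000 (SEMA3F, GNAI2, HYAL2, RASSF1), chr11:72500001-72800000 (PDE2A, ARAP1, STARD10), chr16:66300001-66600000 (CDH5, TK2, CMTM4), chr19:2400001-2700000 (LMNB2, GADD45B, GNG7) and chr19:48200001-48500000 (EMP3, KDELR1, CYTH2). Their median folds ran from 8.69 to 13.8. In the chromosome 3 run a single summit of 35 lay outside genes.

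The bin chr17:47800001-47900000, one of the pair with 21 summits, holds SP6 and SP2, zinc finger transcription factors of the SP family, with OSBPL7, MRPL10, LRRC46 and SCRN2. Its folds ran from 2.89 to 87.8 with a median of 12.1, and 13 of the 21 reached 10. The strongest peak, at chr17:47855533-47856538 inside SP6, was 300 fragments high (95% confidence interval of the pileup, exact Poisson, 267 to 336). The bins beside it held 11 and 4 summits. The other bin with 21, chr6:32100001-32200000, is in the class III region of the major histocompatibility complex and overlaps 12 protein-coding genes, including TNXB, the stress response factor ATF6B, the receptors NOTCH4 and AGER and the homeobox gene PBX2. Its peaks were weaker, with a highest fold of 22.8 and a median of 11, and 9 of 21 were at gene ends. A single summit stood in the bin before it. Its median control level was 2.58, above the 1.67 over all peaks.

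Chromosome 17 carries 4 further bins of the top 15. In chr17:78300001-78400000, the 20 summits around SOCS3 and PGS1 had a median fold of 21.8, and 10 were at gene ends. The strongest, with a fold of 75.4 and a pileup of 278 fragments (246 to 313), stood 99 bases from the start of PGS1, an enzyme of cardiolipin synthesis. In chr17:49400001-49500000, which overlaps PHB1 and NGFR, the low-affinity neurotrophin receptor, 17 of 20 summits were outside genes. The median fold there was 6.76, the folds ran from 3.29 to 69.9 and 9 of the 20 reached 10. The next bin, chr17:49500001-49600000, held 11 summits and the peak with the highest fold of the whole list, 327 with a pileup of 917 fragments, at chr17:49502261-49504359 inside NGFR.

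The remaining pair on this chromosome hold homeobox genes, which set position and cell fate in the embryo. The bin chr17:48500001-48600000 covers HOXB1 to HOXB6, and its 17 peaks covered 23.1% of the sequence, beside a median of 8.10% over dense bins. The strongest, with a fold of 69.1, lay outside genes, 4266 bases from the lncRNA LOC105371808. In chr17:49900001-50000000, around DLX3 and DLX4, 14 of 17 summits were outside genes, the median fold was 6.83 and the strongest (58.4) was 54681 bases from DLX4.

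On chromosome 1 lie 4 of the top 15, of which 3 are given here. The bin chr1:16100001-16200000 holds EPHA2, a receptor tyrosine kinase for ephrin ligands, and ARHGEF19. Its 17 summits had the highest median fold of the 15, 24.5. Of the 17, 8 including the strongest (91.9) lay inside EPHA2. Its first summit lay 39.1 kb into the bin. The bin chr1:156800001-156900000, with INSRR, which encodes a relative of the insulin receptor, PEAR1, PRCC and SH2D2A, held 17 summits with a median of 5.95, of which 2 were at gene ends. In chr1:32200001-32300000, with the T cell kinase LCK, the deacetylase HDAC1 and EIF3I, 10 of 16 summits were at gene ends. Its strongest peak, 2736 bp wide with a fold of 149 and a pileup of 386 fragments (348 to 426), lay 4734 bases from the start of FAM167B.

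The bin chr19:45400001-45500000 holds FOSB, an AP-1 subunit induced at once by growth factors, with ERCC1, a nuclease subunit of DNA repair, PPP1R13L, POLR1G, RTN2 and PPM1N. Its 17 summits had a median fold of 15.6 and a median control level of 4.17, the highest control level of the 15. The strongest peak (73.8) lay inside ERCC1, 427 bases from its start, and the peak inside FOSB had a fold of 56.0. In chr6:44200001-44300000, with the NF-kappaB inhibitor NFKBIE, the chaperone HSP90AB1 and SLC29A1, the 19 summits had a median of 16.3 and the strongest (76.8, 2871 bp wide) stood 169 bases from an end of NFKBIE.

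The other 4 of the top 15 are on chromosomes 7, 1, 5 and 6. The bin chr7:5500001-5600000, with ACTB (beta-actin), the actin bundling protein FSCN1 and FBXL18, had 17 summits with a median fold of 20.6, of which 12 were outside genes. Its strongest (64.1) was 23030 bases from FSCN1. In chr1:156600001-156700000, with NES, BCAN, HAPLN2, CRABP2 and GPATCH4, 19 summits had a median of 7.44. In chr5:141800001-141900000, where the adhesion gene PCDH1 is the only protein-coding gene, 18 summits had a median of 9.58 and the strongest (94.8, pileup 414 fragments, 375 to 456) lay 3258 bases beyond PCDH1. The bin chr6:149900001-150000000 holds ULBP1, ULBP2 and RAET1G, ligands of the NKG2D receptor of natural killer cells. Its median of 5.72 was the lowest of the 15 and its strongest peak, 1913 bases from ULBP1, the highest, with a fold of 151 and a pileup of 659 fragments (610 to 711). The next highest fold in that bin was 46.1. The 15 bins thus differed in whether a few peaks or most of them were strong.

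**Figure D4:**
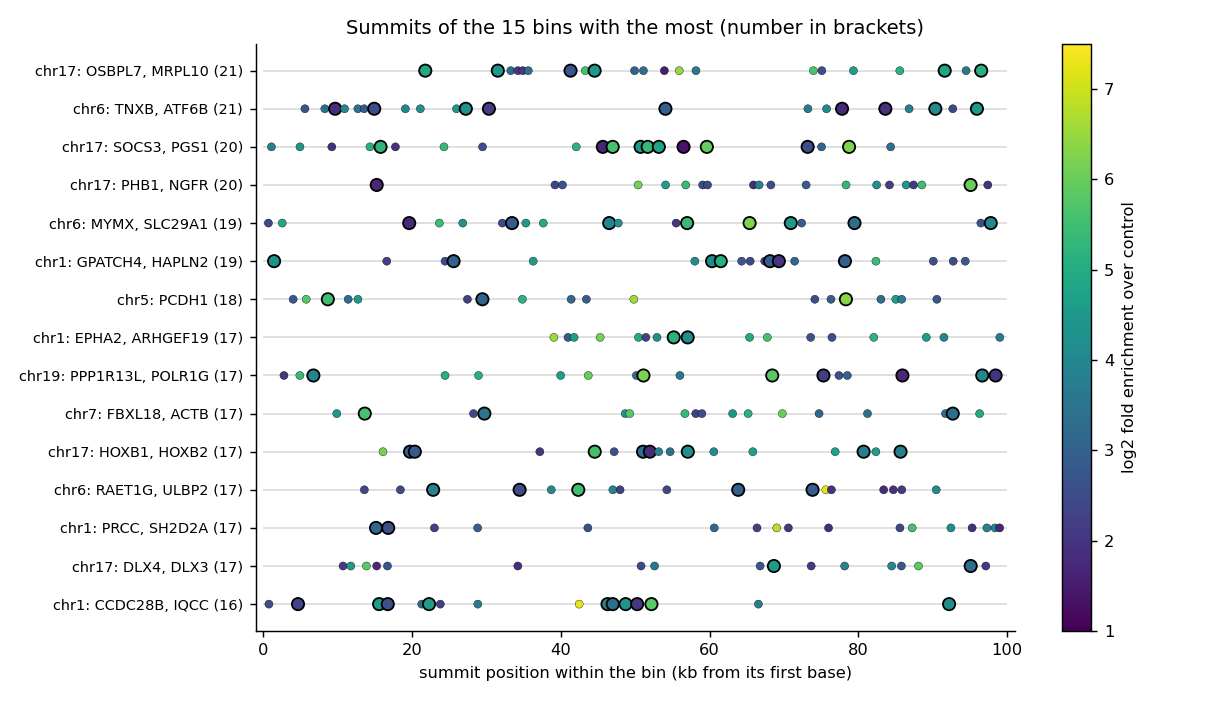
Position of each summit in the 15 bins with the most summits (x axis, kb from the first base of the bin; one line per bin, labelled with its chromosome, up to 2 of its protein-coding genes, the first by position, and its number of summits). Colour gives log2 fold enrichment over control and large ringed points lie within 1 kb of a gene end; the line of RAET1G and ULBP2 has its strongest peak at a fold of 151 and a median of 5.72, whereas that of EPHA2 and ARHGEF19 has a median of 24.5.

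On the grid shifted by 50 kb, all 15 of these bins overlapped a bin with 10 or more summits, as did 321 of the 475 (67.6%). Each shifted bin takes in 50 kb of a bin it overlaps, so for those of the 15 with 19 or more summits this was certain. The 15 held 16 to 21 summits, so their overlap says little about the choice of grid. Of the 475, 20 held 10 or more summits with a fold of at least 10. In chr6:33200001-33300000, with the retinoid receptor RXRB, the Polycomb protein RING1, RPS18 and TAPBP, all 14 summits did so. The others with 12 or 13 such summits were the bins of SP6 and SP2, EPHA2, SOCS3 and HOXB, chr9:129400001-129500000, chr19:1200001-1300000 (STK11, a tumour suppressor kinase, and MIDN) and chr12:6600001-6700000 (CHD4 and ING4). The last 3 bins and that of RING1 were named after their values had been seen.

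The 5 bins with the highest median fold held 10 to 13 summits. They were chr8:125300001-125400000 inside NSMCE2 (33.1, 10 summits, 0 at gene ends), chr17:82200001-82300000 with the lactate transporter SLC16A3 and the kinase CSNK1D (30.9, 13 summits), chr17:81300001-81400000 with BAHCC1 (28.2), chr5:177400001-177500000 with GRK6, DBN1 and PDLIM7 (25.9), and chr19:44700001-44800000 with BCL3 and CBLC (25.8). At the other end were chr6:27500001-27600000 (4.88), which overlaps no protein-coding gene and had a median control level of 4.05, chr1:24100001-24200000 with MYOM3 and IFNLR1 (4.94), chr6:40400001-40500000 with LRFN2 (5.02), chr14:92400001-92500000 with SLC24A4 and chr20:33200001-33300000 with BPIFA1, BPIFA3 and BPIFB1 (5.15 each). Even among these 5, the strongest peak reached 87.1 in the bin of MYOM3 and 70.7 in that of SLC24A4.

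No protein-coding gene overlapped 35 of the dense bins, of which 24 held a lncRNA gene and 11 neither kind. Their 393 summits had a median fold of 8.24, against 10.03 in the dense bins with a protein-coding gene. Of the 393, 6.36% were at a gene end and 70.7% outside genes. Bins without a protein-coding gene and with 1 to 9 summits were similar, with a median fold of 8.49 and 4.82% of summits at a gene end. The most summits, 16, were in chr6:44000001-44100000 with the lncRNAs SCIRT and LINC03040 (median fold 14.8), and 10 of them had a fold of 10 or more. The bin chr5:138600001-138700000 held 15 summits and neither kind of gene, with a highest fold of 22.2. Another such bin, chr20:6600001-6700000, held 14 summits with a strongest fold of 113. On chromosome 8, the lncRNA PVT1, which lies next to MYC, passed through 3 of these bins, chr8:127800001-127900000, chr8:127900001-128000000 and chr8:128100001-128200000, with 11, 12 and 11 summits and strongest folds of 175, 110 and 125. Chromosome 8 has a median control level of 2.15 at its peaks, against 1.67 over all.

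At the gene-rich end, chr6:27800001-27900000 overlapped 16 protein-coding genes, all of them histone genes, and 9 of its 11 summits were at a gene end. Its folds were low, with a median of 5.53 and a highest of 11.9, and its median control level was 3.11. In chr9:137200001-137300000, with 14 genes including TUBB4B, NELFB and the Notch inhibitor NRARP, 9 of 10 summits were at gene ends with a median fold of 13.2. In chr11:64200001-64300000, with 13 genes including VEGFB, BAD and FERMT3, 10 of 14 were at gene ends. In chr6:31700001-31800000, also of the class III region, 8 of 12 were, with 13 genes including CLIC1, MSH5 and DDAH2.

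Lists of genes were read against the 8.20% of all protein-coding genes that overlap a dense bin. The AP-1 and immediate early list had 8 of 29 members there (27.6%, Wilson 95% confidence interval 14.7 to 45.7), in 8 separate bins. The median over the list of the highest summit count of any bin a gene overlaps was 7, against 3 over all protein-coding genes. FOSB shares its bin of 17 with the genes named above. FOS had no summit inside the gene and its nearest summit, 1636 bases from the gene, had a fold of 29.7 in a bin of 15. NR4A1, a nuclear receptor, held 9 summits of up to 34.5 within the gene. ZFP36, which promotes decay of cytokine mRNAs, had a peak of fold 47.5 at 160 bases from the gene, FOSL1 one of 47.3 inside it and EGR1 one of 52.3 at 233 bases. EGR3 and IER2 completed the 8.

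Receptor tyrosine kinases and their ligands had 5 of 18 members in dense bins (27.8%, 12.5 to 50.9), and all 5 are receptors. EPHA2 was in the bin of 17 and EPHB4 in a bin of 13. ERBB2 overlaps a bin of 14 and the next bin, with a summit 30 bases from an end of the gene (fold 10.7). AXL was in a bin of 10 with 5 summits inside the gene of up to 56.3. ERBB3 was in a bin of 10, with a summit of fold 29.1 in the neighbouring bin, 37 bases from an end of the gene. The median bin count of this list was 5. EGFR, also on the list and named after its value was seen, had 4 summits in its fullest bin. The list of ERK feedback genes and PEA3 factors had 4 of 20 (20%, 8.07 to 41.6), with a median bin count of 6.5. They were CIC, a repressor relieved by ERK, with 4 summits of up to 30.3 inside the gene in a bin of 16, SPRED3 in a bin of 11, and the phosphatases DUSP1, with a peak of 35.4 at 293 bases, and DUSP5, in bins of 10. The PEA3 genes themselves were not among them, with 4 summits each in the fullest bins of ETV4 and ETV5 and 1 in that of ETV1. The ETV4 summit nearest to an end of the gene had a pileup of 2958 fragments over a control level of 313, against a median control level of 1.67 over all peaks. The cells were transfected with Flag-ETV4, and here reads of the transfected copy and of the chromosome cannot be told apart.

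Epithelial keratins and junction genes had 8 of 24 in dense bins (33.3%, 18 to 53.3) in 7 bins, with a median bin count of 8. CLDN4 was in a bin of 15 and CLDN3 in the bin before it, of 11, each with its nearest summit of a fold near 6 (6.04 and 5.97). PKP1, a desmosome plaque protein, overlaps a bin of 15 and the next bin and held 6 summits of up to 17 in all. KRT80 held 4 of up to 20.8 in a bin of 13, PKP3 2 of up to 5.26, and CLDN7 had a peak of 16.7 at 319 bases. KRT8 and KRT18, the paired keratins of simple epithelia, lie side by side in a bin of 11. Integrins and laminins had 4 of 17 (23.5%, 9.56 to 47.3). ITGB5 held 11 summits of up to 73.8, ITGB3 7 of up to 40.2, ITGA5 a peak of 36.7 at 242 bases, and LAMB3 a peak of 109 inside the gene. Mesenchymal and protease genes had 4 of 24 (16.7%, 6.68 to 35.9), among them MMP14, PLAU and TGFB1, with a median bin count of 3, equal to that of all genes. PLAU, the urokinase, held a peak of 33.2 and TGFB1 one of 41.4.

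The replication machinery had 4 of 49 members in dense bins (8.16%, 3.22 to 19.2) and a median bin count of 3, both at the level of all genes. CDC6 and TOP2A share a bin of 12, with summits of fold 10.99 and 6.37 near an end of the gene. Both genes reach into a neighbouring bin, and these summits may lie there. MCM7, a helicase subunit, overlaps a bin of 11 and the next bin, and the peak of 61.9 inside the gene may lie in either. SSRP1, of the histone chaperone FACT, was in a bin of 10 with a peak of 25.3. Among further genes that the study names, EGR1 was in a dense bin of 10. So was LMNB2 on chromosome 19, which overlaps the origin that the paper's results label LAMB2. The fullest bins of JUNB, TOP1 and CTCF held 8 summits each, those of MCM2 and MCM5 6 each, those of MCM10 and HPRT1 2 each and those of MCM4 and ORC1 1 each.

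Lung epithelium genes had 4 of 25 (16.0%, 6.4 to 34.7), AGER, MUC1, FOXJ1 and SFTPC, YAP and TEAD genes 2 of 16 (12.5%), AMOTL2 and CCN1, and NRF2 targets 1 of 24 (4.17%), ABCC3, with 11 summits of up to 108 inside the gene. Marker genes of cells that are not in a culture of a lung line also fell in dense bins. Neuronal markers had 3 of 18 (16.7%, 5.84 to 39.2), SLC17A7, RBFOX3 and DLG4, and blood markers 2 of 18 (11.1%, 3.10 to 32.8), CD4 and CD79A. RBFOX3, a gene that spans 7 bins, held 51 summits. The intervals of these 5 lists include 8.20%, but an interval that includes or leaves out this share is not a test of a list. Members of a list can share a bin and long genes overlap more bins, which the intervals ignore. The lists were also chosen with earlier results of these data known, so the shares are a description.

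**Figure D5:**
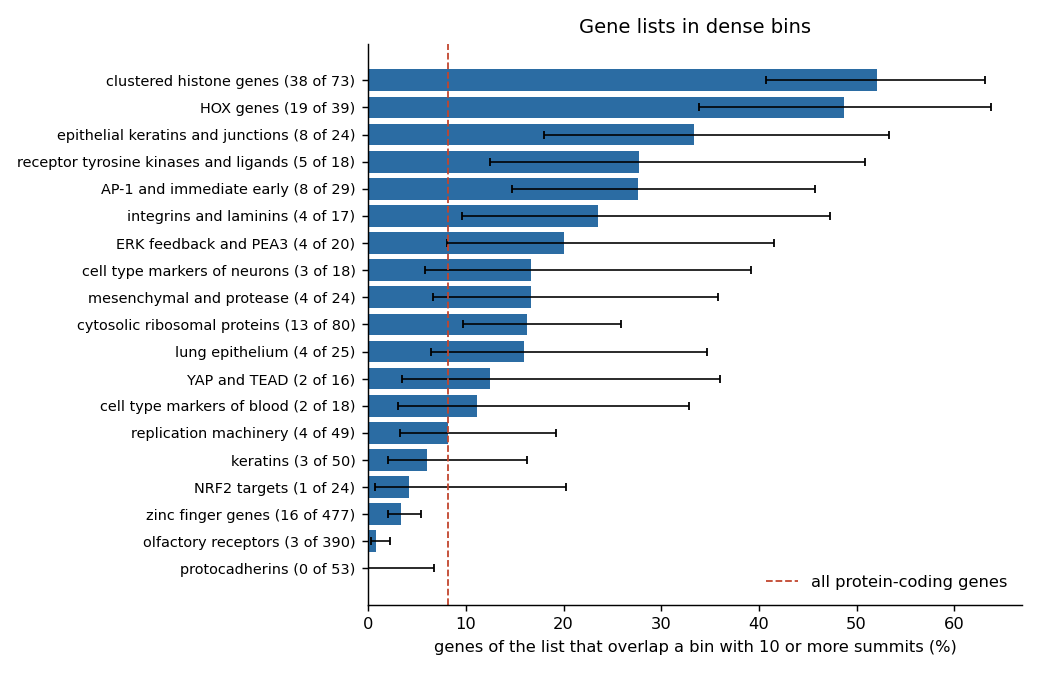
Percent of the genes of each list that overlap a bin with 10 or more summits (bars, x axis) with Wilson 95% confidence intervals (lines), the number of genes in brackets, and the share of all protein-coding genes (dashed line, 8.20%). The epithelial list stands at 33.3% and the replication list at 8.16%; histone and HOX genes share few bins.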

How the data were processed

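Genomic DNA from 1 anti-Flag immunoprecipitate and 1 input library was sequenced. The authors deposited a peak list for the immunoprecipitate, which gives for every peak its start, end and summit, the ratio (fold) of immunoprecipitate to control, the −log10 p-value, the −log10 q-value and a display score left unused. The submitters' processing notes name Bowtie2 2.4.1, SAMtools, MACS2 2.2.7.1, deepTools 3.5.0 and the builds hg38 and GRCh38, without roles or parameters. The handling of duplicate reads is not given in the sources used here. The peaks were called on 1 library, with no replicates to pool.

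Summits were assigned to bins of 100 kb, and genes of the RefSeq GRCh38.p14 table to every bin they overlap. Sequences were taken from its promoter table. Positions are 1-based. Fold and −log10 p together gave the pileup and control level of a summit, with p taken as a Poisson probability. The total number of reads is unknown. The median pileup was 26 fragments, with exact Poisson 95% confidence intervals, and shares have Wilson intervals. Both cover counting error only. No test was run, as the counts that chose the bins come from the single library. The bins, gene lists and alternatives were chosen with earlier results of these data known. Bins named are the 15 with the most summits, runs of 3 or more, the 5 highest and 5 lowest in median fold, those without and the 5 with the most protein-coding genes. Genes named lie in such bins, belong to the lists (up to 6 a list) or are named by the study. Those named by other criteria are said to be so. Some genes that the rule names are not reported here. The 5 bins with the fewest protein-coding genes are among those without any. The functions were tested on simulated data. Alternatives covered the grid, bin size, threshold, peak strength and overlap rule. The work used Python 3.11.15 with matplotlib 3.10.9, scipy 1.17.1, pandas 2.3.3 and numpy 2.4.6.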

Additional observations from a re-analysis of the deposited data

How the results depend on the processing

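The set of bins depended on where the threshold and the peak list were drawn. The number of dense bins was 1910 with 50 kb bins of 5 or more summits, 90 with 200 kb bins of 20 or more, 1050 at 8 or more summits, 188 at 12 or more, 216 and 20 with peaks of fold 5 or 10 or more, and 279 at −log10 q of 5 or more. In the same order, they held 21.2%, 3.71%, 19%, 4.68%, 5.45%, 0.854% and 6.77% of the peaks entered, and 16.3%, 3.53%, 15.5%, 3.37%, 3.81%, 0.581% and 5.25% of the protein-coding genes. On a grid shifted by 50 kb they held 9.79% of the peaks and 7.79% of the genes, and with summits under 1 kb apart counted once 8.54% and 6.68%. The longest run of 4 bins became 2 bins with 200 kb bins, 2 at 12 or more summits and 1 at a fold of 10 or more. The median fold of 9.91 became 10.5 with 200 kb bins, 13.1 and 22 at a fold of 5 or 10 or more, 11.9 at −log10 q of 5 or more and 10.5 with close summits counted once. A protein-coding gene overlapped 92.6% of the dense bins, 83.7% with 50 kb bins, 97.8% with 200 kb bins, 95.2% at 12 or more summits, 95% at a fold of 10 or more and 88.4% when an end of the gene had to lie in the bin. The stricter thresholds enter fewer peaks by construction. In 24 of 62 recomputations the value stayed within 1.5 times for counts or within the 95% interval for shares and the median, and these include all 6 results with the middle of the interval in place of the summit. No paired analysis was possible because the result comes from no test and there is 1 library of each kind. Weak peaks set many of the counts, the input is seen only above its floor, and without a replicate it is not known which bins would hold 10 summits in another culture.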

Other observations

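Gene families with neighbouring copies showed how strongly shared bins shape such counts. Of 73 clustered histone genes, which encode the core and linker proteins of the nucleosome, 38 overlapped a dense bin (52.1%), but these were only 4 bins. In 3 of them, on chromosome 6, the median folds were 5.53, 7.11 and 8.34 and the median control levels 3.11, 3.41 and 3.38, above the 2.2 of that chromosome. HOX genes had 19 of 39 (48.7%) in 3 bins, HOXB1 to HOXB6 and HOXB6 to HOXB9 in neighbouring bins of 17 and 12 summits and the HOXA genes in a bin of 12. Protocadherins of the clustered families had 0 of 53 (Wilson 95% interval up to 6.76%), although the median of the fullest bin a gene overlaps was 4 summits with 15 protein-coding genes. Olfactory receptors had 3 of 390 (0.769%) and a median of 0 summits, and zinc finger genes with a ZNF symbol 16 of 477 (3.35%), both under the 8.20% of all protein-coding genes. Keratins had 3 of 50. Cytosolic ribosomal proteins had 13 of 80 (16.3%, 9.75 to 25.8) in 12 bins. Among them, RPS19 had a peak of fold 92.4 at 429 bases from the gene and RPL28 one of 65.3 at 63 bases. RPS18 had one of 35.0 inside the gene, 14 bases from either its start or its end.

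On chromosome 6, the stretch from 26 to 34 Mb, with histone clusters and the major histocompatibility complex, was chosen after its values were seen. It held 16 of the 33 dense bins of that chromosome in 80 bins (20%), against 1.04% of the other bins of chromosome 6, with a mean of 3.56 protein-coding genes per bin. The median control level of its dense bins ran from 1.75 to 4.05 and their median fold from 4.88 to 21.1.

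Some dense bins stood alone. In 27 of them the bins on either side held at most 2 summits each, and in 2 both sides held 0. The first, chr7:38300001-38400000, overlaps AMPH and the lncRNA TRG-AS1 and held 14 summits of median fold 17.5, of which 6 were outside genes. The second was chr1:153900001-154000000, with 14 summits of median fold 14.3 and 9 protein-coding genes including CRTC2, RAB13 and RPS27. Another with 14 summits, chrX:53200001-53300000, holds the demethylase KDM5C. In chr7:74000001-74100000, with ELN (elastin) and LIMK1, 13 summits had a median fold of 21.2 and the strongest a fold of 174.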
